A study of Mus musculus with 9 samples.

Results

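The genes described here are 32 genes of the unfolded protein response and of the early secretory pathway, out of 19937 genes measured on 9 Affymetrix arrays of sorted mouse CD4 T cells. They are 7 stress sensors and transcription factors, 11 chaperones and cochaperones, 4 protein disulfide isomerases and 4 genes of endoplasmic reticulum (ER) associated degradation. The others are 4 genes of translocation into the ER and 2 genes of the COPII coat. Each gene was represented by its brightest probe set that names no other gene, and all 32 were measured. For 30 genes there was only 1 such probe set, and Pdia4 and Sec61b had more.

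The study sorted naive and allergen-induced T helper 2 (Th2) cells, the CD4 T cells that secrete interleukins 4, 5 and 13 in allergic airway inflammation. Naive cells (CD4+ CD62L+ CD44-) were sorted at day 29 from spleens of the sham group. Th2 cells (CD4+ CD69+ ST2+) came from the lung of mice given 3 intraperitoneal injections of 10 µg ovalbumin in 1.5 mg alum and then 1% ovalbumin aerosol. Acute Th2 cells followed 3 consecutive days of aerosol and were taken at day 29, and chronic Th2 cells followed 12 weeks of aerosol and were taken at day 104. Per the labels' protocols all cells were restimulated for 8 h with anti-CD3 and anti-CD28 after the sort. Naive replicate 1 had lower activation markers than the other naive arrays, given below, and how far it was stimulated is not known. The labels give neither strain nor genotype of the mice. Each group has 3 arrays, labelled as biological replicates. Whether each comes from a single animal or from a pool is not stated, and the p values measure the spread among these replicates. Tissue and cell state change together between naive and Th2 cells, and day and stage change together between acute and chronic Th2 cells. Fewer cells of a type and less RNA per cell cannot be told apart in such bulk samples.

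The ER folds and exports secreted and membrane proteins, and the unfolded protein response is the set of signals that adjusts its capacity. IRE1 (Ern1) cuts the Xbp1 messenger RNA so that it is spliced into the active factor, PERK (Eif2ak3) slows translation while raising ATF4, and ATF6 is released from the membrane by cleavage in the Golgi. The resulting factors raise chaperones, disulfide isomerases and degradation genes, and activated lymphocytes that secrete much protein draw on this machinery. Splicing of Xbp1, phosphorylation and cleavage are not measured by these arrays, which report transcript levels only.

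Promoters of this pathway are known to carry short elements bound by ATF6, XBP1 or ATF4, and the sequences are shown because they are the letters that the factors described below are known to read. RefSeq promoter windows (mouse build GRCm38.p6, 250 bases before to 50 after the annotated start) were matched by symbol for 28 of the 32 genes. Atf6, Hyou1, Manf and Sec61a1 are not listed there. Each window was searched in both orientations for the ER stress response element (ERSE, which is CCAAT, 9 free bases and CCACG), for ERSE-II (ATTGG, 1 free base and CCACG), for an unfolded protein response element core (UPRE, TGACGTGG) and for the ATF4 type element (CARE, TGATGNAA). ERSE was found in 8 of the 28 genes against 0.119% of 32851 mouse windows, and ERSE-II in 2 genes against 0.0365%. UPRE was found in 1 gene, Sec24d, against 0.676% of windows, and CARE in 2 genes, Trib3 and Herpud1, against 3.97%. No match overlapped another. A match is a description of the letters and shows no binding. The ERSE matches follow, written 5′ to 3′ in the orientation of the element, with the fixed letters in capitals.
Hspa5: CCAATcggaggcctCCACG
Hsp90b1, distal: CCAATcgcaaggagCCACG
Hsp90b1, proximal: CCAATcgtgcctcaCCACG
Calr: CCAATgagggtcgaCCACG
Canx: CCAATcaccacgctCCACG
Creld2: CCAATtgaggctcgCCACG
Dnajc3: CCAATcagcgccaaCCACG
Pdia6: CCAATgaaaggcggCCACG
Syvn1: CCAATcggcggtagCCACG

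The ERSE lay between base -212 and base -26 from the start in these 8 genes, of which 6 are chaperones or cochaperones, 1 is a disulfide isomerase and 1, Syvn1, is a ubiquitin ligase. The matches in Calr and Creld2 and the proximal one in Hsp90b1 run in the reverse orientation. Both ERSE-II matches differ only in the free base.
Herpud1: ATTGGgCCACG
Dnajb11: ATTGGcCCACG

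The 250 bases before the start are printed for 4 genes that stand for the different elements, with the fixed letters of every match in capitals and the gene's strand read 5′ to 3′, so that a reverse match appears as its complement. All 4 genes lie on the plus strand. Hspa5 (chr2:34771840-34772089) and Creld2 (chr15:88819396-88819645) carry an ERSE, in opposite orientations. Herpud1 (chr8:94386179-94386428) carries ERSE-II close to the start and a CARE in the reverse orientation farther out. Sec24d (chr3:123267246-123267495) carries the UPRE letters just before the start.
Hspa5: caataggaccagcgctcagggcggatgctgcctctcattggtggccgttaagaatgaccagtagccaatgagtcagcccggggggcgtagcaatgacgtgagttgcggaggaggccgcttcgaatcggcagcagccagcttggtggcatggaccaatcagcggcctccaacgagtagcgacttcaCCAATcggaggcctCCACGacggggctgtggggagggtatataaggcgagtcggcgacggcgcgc
Creld2: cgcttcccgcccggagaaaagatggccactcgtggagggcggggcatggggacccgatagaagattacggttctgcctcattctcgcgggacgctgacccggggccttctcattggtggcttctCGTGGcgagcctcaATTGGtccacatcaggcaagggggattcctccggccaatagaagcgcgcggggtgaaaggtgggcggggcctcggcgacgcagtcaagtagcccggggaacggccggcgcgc
Herpud1: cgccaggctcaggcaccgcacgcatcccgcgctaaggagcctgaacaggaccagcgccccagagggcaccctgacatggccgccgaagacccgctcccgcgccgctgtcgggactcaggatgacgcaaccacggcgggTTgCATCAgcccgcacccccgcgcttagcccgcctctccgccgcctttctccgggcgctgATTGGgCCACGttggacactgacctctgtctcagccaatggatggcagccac
Sec24d: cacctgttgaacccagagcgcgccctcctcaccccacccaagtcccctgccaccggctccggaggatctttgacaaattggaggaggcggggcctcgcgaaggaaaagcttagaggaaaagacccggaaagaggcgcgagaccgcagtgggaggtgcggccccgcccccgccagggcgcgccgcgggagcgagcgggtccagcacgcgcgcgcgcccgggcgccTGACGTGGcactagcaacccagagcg

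**Figure D1:**
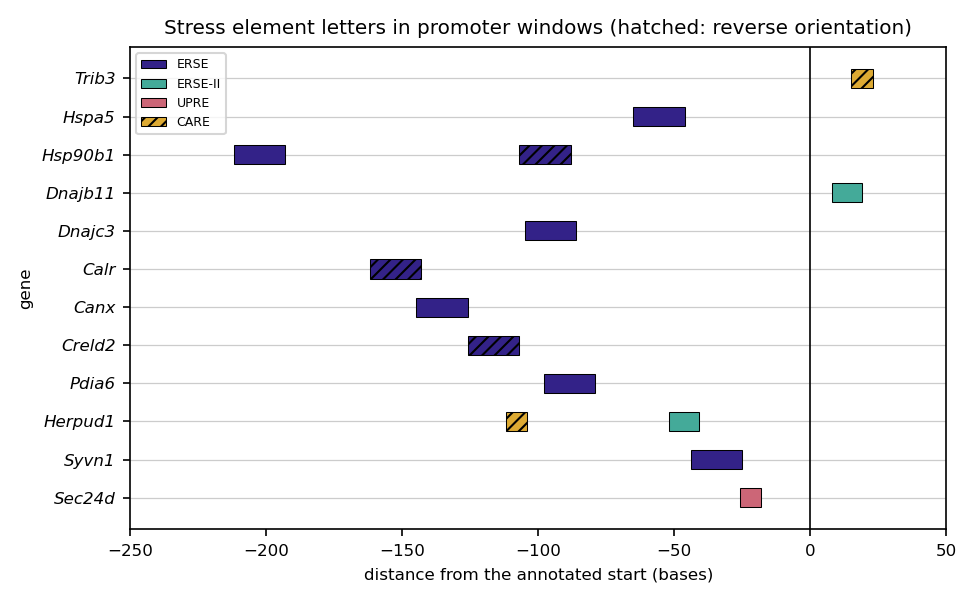
Position of the matched letters in bases from the annotated start (0, vertical line) for the 12 genes with any match; colour gives the element and hatching the reverse orientation. The 9 ERSE matches all lie before the start, and those of Dnajb11 (ERSE-II) and Trib3 (CARE) lie after it.

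Before any comparison, naive replicate 1 stood apart from the other naive arrays, and it did so in these genes more than elsewhere. It read below both other naive arrays for 26 of the 32 genes (81.2%), against 42.8% of all genes, and it was more than 1 log2 unit below both for 10 of 32 (31.2%), against 3.38% of all genes. Its median difference from the mean of naive 2 and 3 was -0.85 over the 32 genes and -0.021 over all genes. The 5 genes Eif2ak3, Dnajb9, Edem1, Sec61b and Sec24d went the other way and were highest in naive 1 among the naive arrays. Across all genes its correlation with naive 2 and 3 was 0.939 and 0.941, against 0.991 between those.

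Markers of the 8 h stimulation moved with this array. Il2, the growth factor that T cells make on activation, read 5.07 in naive 1 against 11.33 and 11.27 in naive 2 and 3. Irf4, a transcription factor induced through the T cell receptor, read 6.87 against 11.73 and 11.71, and the median of 16 activation genes was 8.37 against 10.93 and 11.09. Genes of the naive state went the other way, with a median of 11.63 for the naive and homing genes in naive 1 against 10.56 and 10.42. The library labelled naive replicate 1 thus read below naive 2 and 3 for each of the 16 activation genes. Of these, Cd69, Tnf, Egr3, Nr4a1, Cd40lg and Nfkbid were not below all chronic arrays in naive 1. Cd69 read 10.59 in naive 1 against 10.24, 10.22 and 11.14 in chronic arrays, and Tnf 7.65 against 6.98, 6.96 and 8.24. The other activation genes, among them Il2 and Irf4, were below all chronic arrays in naive 1. Whether and how far naive 1 was stimulated like the others is not known from these files. The part of activation in its low values of the 32 genes was not tested. Chronic Th2 replicate 3 also differed from its group, with Il2 at 11.70 against 9.95 and 8.95, and it is named below where a gene followed it. Every comparison with naive cells is therefore given with all 9 arrays and again without naive replicate 1.

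All 6 measured Th2 genes, Gata3, Il4, Il5, Il13, Ccr4 and Ccr8, were above the background level in both Th2 groups, and the naive means of Il4, Il5 and Il13 were below it. Background here is 6.53, the 95th percentile of the mean log2 levels of 1015 genes for olfactory receptors, a family with no known use in T cells. Plasma cells depend on this pathway, and their defining genes Sdc1, Jchain and Tnfrsf17 stayed below 6.53 in all 9 arrays, as did the B cell genes Cd79a, Ms4a1 and Pax5. Of the 9 measured B and plasma cell genes 3, Cd79b, Ly6d and Pou2af1, had group means above background in every group. Cd79b means were 6.65, 6.77 and 6.95 and Ly6d means 6.71, 6.61 and 6.80 in naive, acute and chronic cells. The summed linear level of the list ranged from 600.2 to 1227 in naive, from 587 to 670.4 in acute and from 704 to 741 in chronic arrays. The upper naive values came with Pou2af1, a coactivator listed here with the B cell genes, at 9.36 and 9.46 in naive 2 and 3 and at 7.17 in naive 1. The activation genes were likewise higher in naive 2 and 3 than in naive 1, and the source of the Pou2af1 signal was not tested. Of 10 lung epithelium and stroma genes 4 had group means above background in every group, namely Sftpa1, Pecam1, Col1a1 and Col3a1, while the secretory genes Sftpc and Scgb1a1 were below it in all arrays. Sftpa1, a surfactant protein gene, read 6.97, 6.95 and 7.19 in naive, 7.23, 7.08 and 7.07 in acute and 7.65, 7.68 and 7.41 in chronic arrays, and rose in chronic over naive cells by 0.54 log2 units (adjusted p = 0.019). The summed linear level of the lung list ranged from 944 to 1512 in naive, from 1119 to 1359 in acute and from 1027 to 1218 in chronic arrays. Of 9 macrophage and monocyte genes only Cd68 was above background, with means of 8.25, 8.03 and 8.07 in naive, acute and chronic cells. None of 6 dendritic cell genes had a group mean above it. Of 7 eosinophil, mast cell and basophil genes, Siglecf was above it in every group (6.96, 7.00 and 7.10) and Kit in naive and acute cells (6.55 and 6.63). The part of such cells in the results was not tested.

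**Figure D2:**
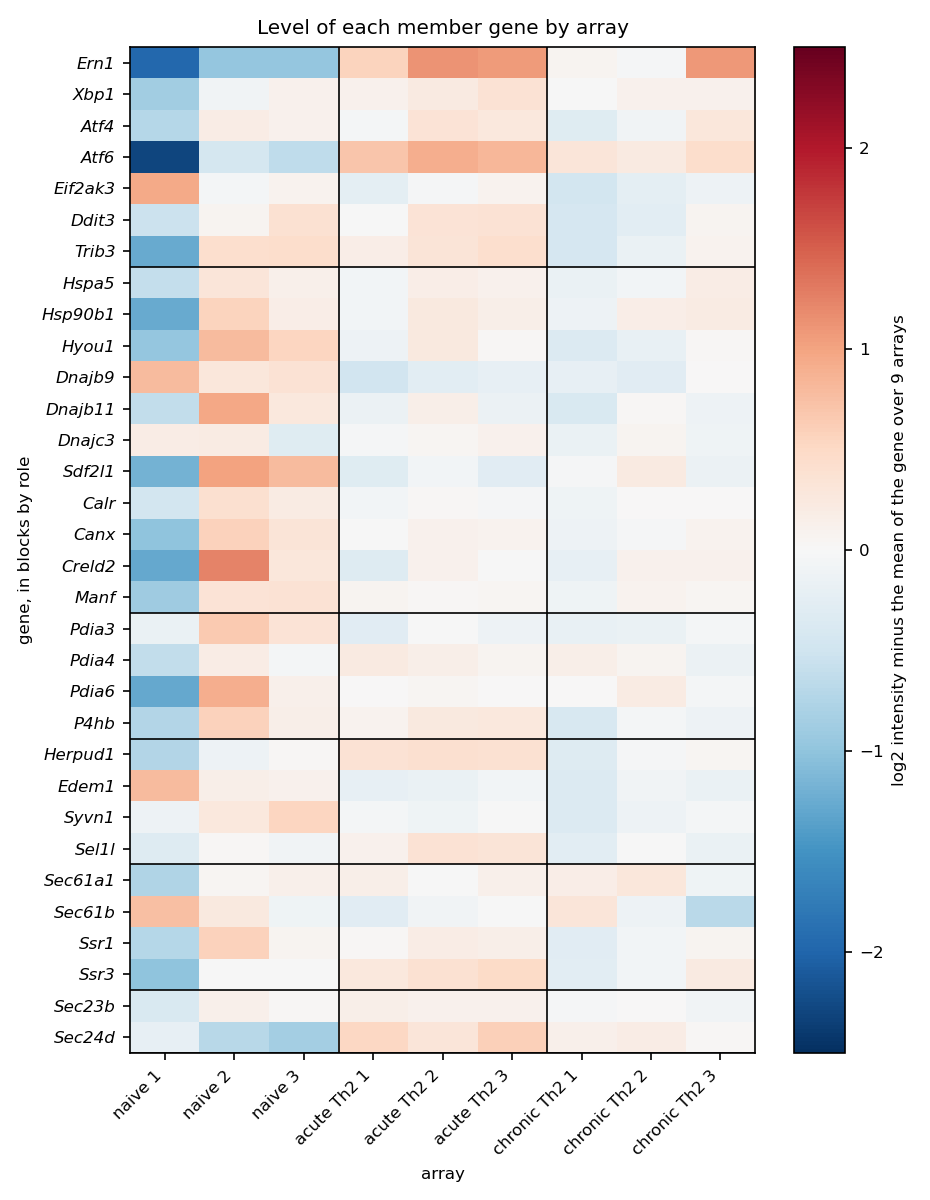
Level of each of the 32 genes (rows, in blocks by role) on each of the 9 arrays (columns), as the log2 intensity minus the mean of that gene over the 9 arrays, on a scale of ±2.5. The naive replicate 1 column is low for most genes and high for Dnajb9, Edem1, Eif2ak3 and Sec61b, while naive 2 and 3 are high for most chaperones.

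In acute Th2 cells 2 of the 3 stress sensor genes and 1 cargo export gene were higher than in naive cells. With all 9 arrays Ern1, Atf6 and Sec24d rose and Dnajb9, a cochaperone of BiP, fell. These are 3 of 32 genes higher (9.38%), where 3.67% of all genes were, and 1 lower (3.12%), where 2.2% were. Among the 9815 genes with a mean level above background, which include all 32, the shares were 6.57% and 4.14%. The median difference of the 32 genes was 0.13 and that of all genes -0.030. Without naive replicate 1, 4 genes rose (12.5%, against 6.05% of all genes), namely Ern1, Atf6, Sec24d and Herpud1. In the same fit 5 fell (15.6%, against 6.11%), namely Sdf2l1, Dnajb9, Pdia3, Hyou1 and Syvn1, most of them genes of the folding machinery. The median then was -0.16, with -0.040 for all genes. For 13 genes (40.6%, against 21.5% of all genes) every acute array read below both remaining naive arrays.

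In chronic Th2 cells, with all 9 arrays, Ern1 and Sec24d rose (6.25%, against 3.68% of all genes) and Dnajb9 fell (3.12%, against 4.2%), with a median difference of -0.030 for the 32 genes and 0.043 for all genes. Among the genes with a mean level above background 5.91% rose and 9.06% fell. Without naive replicate 1, 3 genes rose (9.38%, against 5.84%), Ern1, Atf6 and Sec24d, and 11 fell (34.4%, against 11.4%). Those that fell were Hyou1, Sdf2l1, Dnajb11, Pdia3, Trib3, Syvn1, P4hb, Dnajb9, Canx, Manf and Edem1, and the median difference was -0.31, with 0.036 for all genes. For 15 genes (46.9%, against 22.6%) every chronic array read below both remaining naive arrays. The activation genes moved in the same fits: 6 of 16 were lower and 3 higher in acute cells (median -0.43), and 9 were lower and 3 higher in chronic cells (median -1.11). Their part in the falls of the 32 genes was not tested. Both comparisons share the naive arrays, so that their likeness is no independent evidence. The shares of all genes include dim genes, which are called less often. Shares among the brighter genes were computed only with all 9 arrays. Without naive replicate 1, the rises of Ern1, Atf6 and Sec24d passed the test in both comparisons under all 3 scalings tried (as deposited, arrays centred on their median, quantile normalised). So did the falls of Pdia3 and Sdf2l1, that of Dnajb9 in acute cells only and those of Canx and Hyou1 in chronic cells only. The other 7 falls in chronic cells were lost under quantile normalisation, which left 4 of the 32 genes, where 9.13% of all genes fell.

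**Figure D3:**
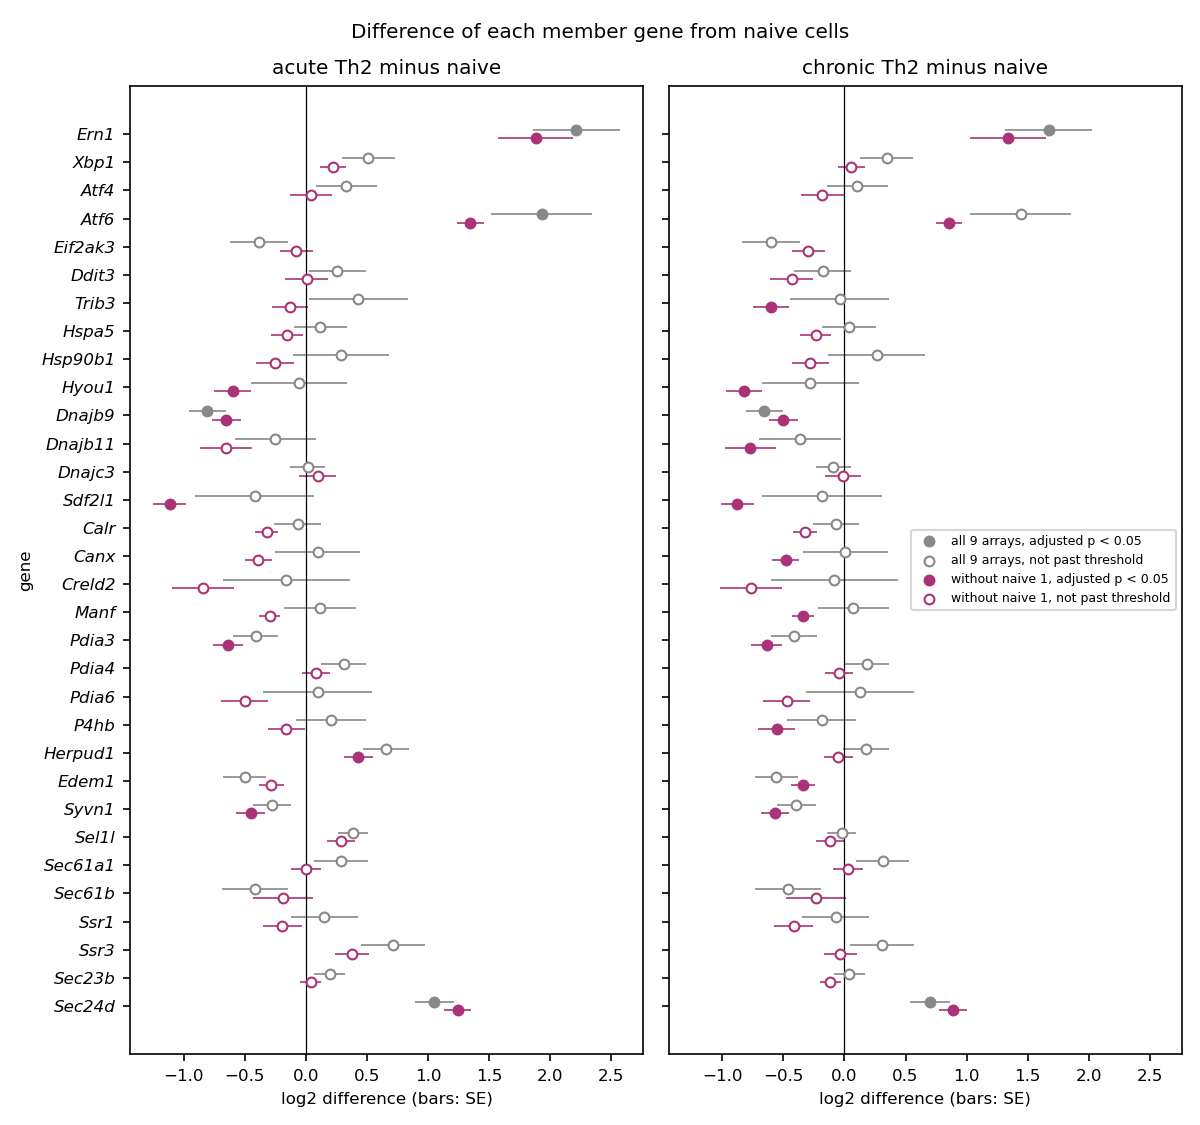
Log2 difference from naive cells for each gene in acute (left) and chronic (right) Th2 cells, with bars for the SE; grey is the fit on all 9 arrays, colour the fit without naive replicate 1, and filled points have an adjusted p under 0.05. Ern1, Atf6 and Sec24d lie to the right in both panels, and most chaperones and isomerases move left once naive replicate 1 is left out.

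Among the sensors, Ern1 had the largest differences from naive cells with all 9 arrays. It codes for IRE1, the kinase and nuclease that splices Xbp1, and read 6.74, 7.74 and 7.75 in naive, 9.27, 9.83 and 9.76 in acute and 8.77, 8.68 and 9.78 in chronic arrays. Group means were 7.41 ± 0.58, 9.62 ± 0.31 and 9.08 ± 0.61 (SD, n = 3). Neither Th2 group overlapped the naive arrays, and chronic replicate 3 lay among the acute values while the other chronic arrays lay lower. Acute cells were 4.64-fold higher, a difference of 2.21 (SE 0.36, adjusted p = 0.00752), which passed in all 9 fits that left out 1 array. Chronic cells were 3.18-fold higher, 1.67 (SE 0.36, adjusted p = 0.026), which passed in 6 of those 9 fits. The call was lost without acute 2, acute 3 or chronic 1, with adjusted p up to 0.0644. Without naive replicate 1 the differences were 1.88 (SE 0.31, adjusted p = 0.00432) and 1.34 (SE 0.31, adjusted p = 0.018).

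Atf6, the membrane-bound factor that is cleaved to drive chaperone genes, read 6.60, 8.46 and 8.26 in naive, 9.58, 9.79 and 9.73 in acute and 9.19, 9.12 and 9.33 in chronic arrays. No 2 of the groups overlapped, and naive replicate 1 was the lowest array, in a naive mean of 7.77 ± 1.02 (SD, n = 3). The rise in acute cells was 1.93 (SE 0.41, adjusted p = 0.0286) with all arrays and 1.34 (SE 0.11, adjusted p = 8.48e-05) without naive 1, which is 2.54-fold. It passed in 3 of the 9 fits that left out 1 array, those without a naive array, and was lost without any 1 Th2 array, with adjusted p up to 0.113. In chronic cells the difference was 1.44 (SE 0.41, adjusted p = 0.0714) with all arrays and 0.86 (SE 0.11, adjusted p = 0.00102) without naive 1.

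The third sensor, PERK, gave negative differences that did not pass the test. Its gene Eif2ak3 read 8.16, 7.18 and 7.30 in naive, 6.98, 7.20 and 7.32 in acute and 6.77, 6.97 and 7.10 in chronic arrays, so that naive 1 was the highest of all 9. Its difference was -0.38 (SE 0.24, adjusted p = 0.53) in acute and -0.60 (SE 0.24, adjusted p = 0.163) in chronic cells. Without naive 1 the values were -0.077 and -0.30, with adjusted p of 0.858 and 0.172.

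None of the 4 factors downstream of the sensors passed as higher in either comparison. Xbp1, whose transcript IRE1 splices, read 9.23, 10.00 and 10.19 in naive, 10.19, 10.31 and 10.45 in acute and 10.08, 10.19 and 10.19 in chronic arrays. Its difference was 0.51 (SE 0.22, adjusted p = 0.289) in acute and 0.35 (SE 0.22, adjusted p = 0.337) in chronic cells, and 0.22 and 0.057 without naive 1. Atf4, the factor that PERK signalling raises through translation, differed by 0.33 and 0.11 with adjusted p of 0.636 and 0.804. Ddit3 (CHOP), the ATF4 target linked to cell death under stress, read 7.58, 8.17 and 8.48 in naive, 8.09, 8.45 and 8.46 in acute and 7.68, 7.84 and 8.17 in chronic arrays, and no test passed, with adjusted p from 0.136 to 0.995. Trib3, a pseudokinase induced by ATF4 and CHOP, read 6.76, 8.44 and 8.45 in naive, 8.18, 8.33 and 8.43 in acute and 7.59, 7.85 and 8.11 in chronic arrays. Trib3 fell in chronic cells once naive 1 was left out, by 0.60 log2 units (SE 0.15, adjusted p = 0.0234), and its difference with all 9 arrays was -0.038 (SE 0.40, adjusted p = 0.96). In acute cells Trib3 differed by -0.13 (SE 0.15, adjusted p = 0.74) without naive 1.

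**Figure D4:**
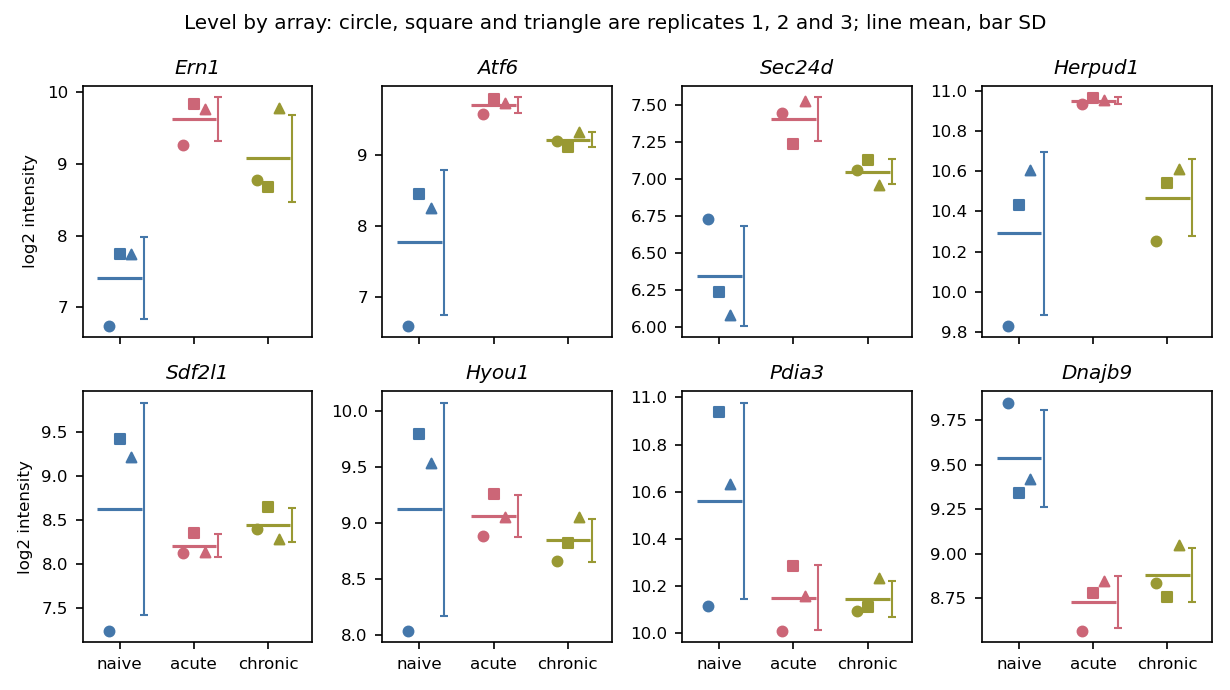
Log2 intensity on each array for 8 genes, with circle, square and triangle for replicates 1, 2 and 3, a line for the group mean and a bar for the SD (n = 3); axes do not start at 0. Naive replicate 1 is lowest of all arrays for Ern1, Atf6, Herpud1, Sdf2l1 and Hyou1 and highest for Dnajb9.

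Of the 11 chaperones and cochaperones, 3 fell in acute (27.3%, against 6.11% of all genes) and 6 in chronic cells (54.5%, against 11.4%) without naive 1. With all 9 arrays 1, Dnajb9, fell in each comparison (9.09%, against 2.2% and 4.2%). Sdf2l1, a partner of the DnaJ cochaperones, read 7.24, 9.42 and 9.21 in naive, 8.12, 8.35 and 8.14 in acute and 8.39, 8.65 and 8.28 in chronic arrays. Naive 1 was the lowest of the 9 and naive 2 and 3 were the highest. Without naive 1, Sdf2l1 fell by 1.11 log2 units (SE 0.13, adjusted p = 0.000789) in acute and by 0.88 log2 units (SE 0.13, adjusted p = 0.00251) in chronic cells. With all 9 arrays the differences were -0.42 (SE 0.49, adjusted p = 0.799) and -0.18 (SE 0.49, adjusted p = 0.828).

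Hyou1, a large Hsp70-like chaperone that exchanges nucleotide on BiP, read 8.04, 9.79 and 9.54 in naive, 8.89, 9.26 and 9.05 in acute and 8.66, 8.82 and 9.05 in chronic arrays. Without naive 1 it fell by 0.60 log2 units (SE 0.15, adjusted p = 0.0335) in acute and by 0.82 log2 units (SE 0.15, adjusted p = 0.00646) in chronic cells, and no Th2 array reached naive 2 or 3. With all 9 arrays its differences were -0.056 and -0.28, with adjusted p of 0.977 and 0.668.

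Dnajb9, a J-domain protein that recruits BiP to IRE1 and to misfolded clients, was the 1 gene that fell in both fits of both comparisons. It read 9.85, 9.34 and 9.42 in naive, 8.57, 8.78 and 8.84 in acute and 8.84, 8.76 and 9.05 in chronic arrays, and every Th2 array was below every naive array. The fall in acute cells was 0.81 log2 units (SE 0.15, adjusted p = 0.0152), or 1.75-fold, and it passed in 7 of 9 fits that left out 1 array, but not without acute 1 or acute 2. In chronic cells it was 0.65 log2 units (SE 0.15, adjusted p = 0.0335), and it passed in 4 of 9, those without naive 1, naive 2, acute 1 or chronic 3, with adjusted p up to 0.125. Without naive 1 the differences were -0.65 (SE 0.12, adjusted p = 0.00813) and -0.50 (SE 0.12, adjusted p = 0.0223).

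Dnajb11, Canx, Manf and Creld2 were read lower in chronic cells than in naive 2 and 3. Dnajb11, a luminal BiP cochaperone, read 7.58, 9.15 and 8.44 in naive, 8.05, 8.34 and 8.04 in acute and 7.80, 8.22 and 8.06 in chronic arrays, and fell by 0.77 log2 units (SE 0.21, adjusted p = 0.0364) in chronic cells without naive 1. Canx, the lectin chaperone calnexin, read 10.26, 11.86 and 11.59 in naive, 11.27, 11.38 and 11.35 in acute and 11.14, 11.23 and 11.36 in chronic arrays, and fell by 0.48 log2 units (SE 0.11, adjusted p = 0.0177) in chronic cells without naive 1. Both had naive 2 and 3 above all Th2 arrays and naive 1 below them. Manf, a secreted ER stress factor, read 7.60, 8.83 and 8.85 in naive, 8.56, 8.53 and 8.54 in acute and 8.38, 8.58 and 8.54 in chronic arrays and fell by 0.34 log2 units (SE 0.089, adjusted p = 0.0309). Creld2, a stress-induced disulfide isomerase-like protein, read 7.22, 9.74 and 8.79 in naive, 8.18, 8.60 and 8.49 in acute and 8.29, 8.60 and 8.60 in chronic arrays. Its difference was -0.76 (SE 0.25, adjusted p = 0.0734) in chronic cells without naive 1, and the naive arrays alone spanned more than all Th2 arrays together. With all 9 arrays the chronic differences of these genes lay between -0.37 (Dnajb11) and 0.073 (Manf), none past the test.

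Hspa5, Hsp90b1, Calr and Dnajc3, widely used markers of ER folding load, passed in neither comparison. Hspa5 (BiP), the Hsp70 chaperone that holds the sensors inactive, read 10.89, 11.79 and 11.62 in naive, 11.41, 11.65 and 11.60 in acute and 11.32, 11.41 and 11.68 in chronic arrays. Its difference was 0.12 (SE 0.22, adjusted p = 0.89) in acute and 0.037 (SE 0.22, adjusted p = 0.925) in chronic cells, with 95% intervals of -0.38 to 0.62 and -0.46 to 0.54. Without naive 1 the intervals were -0.45 to 0.14 and -0.53 to 0.059. Hsp90b1 (GRP94), the ER Hsp90, read 8.75, 10.56 and 10.18 in naive, 9.94, 10.26 and 10.16 in acute and 9.89, 10.18 and 10.21 in chronic arrays, with adjusted p from 0.26 to 0.842 over both comparisons and fits. Calr, the soluble lectin chaperone calreticulin, differed without naive 1 by -0.32 (SE 0.096, adjusted p = 0.067) and -0.32 (SE 0.096, adjusted p = 0.0511). Dnajc3, a BiP cochaperone that inhibits PERK, differed by 0.096 and -0.012 without naive 1. The groups overlapped for Hspa5, Hsp90b1 and Dnajc3 in both fits.

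The elements in the promoter windows can be set beside these changes. Without naive 1, 3 of the 10 genes with ERSE or ERSE-II fell in chronic cells (Canx, Dnajb11 and Syvn1), as did 6 of the 18 windowed genes with neither, against 11.4% of all genes, and the median differences were -0.40 and -0.26, with 0.036 for all genes. In acute cells 1 of the 10 rose (Herpud1) and 1 fell (Syvn1), and 2 of the 18 rose and 3 fell, where 6.05% of all genes rose and 6.11% fell. The medians were -0.36 and -0.035, with -0.040 for all genes. No test was made between these groups of genes.

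Among the disulfide isomerases, which form and rearrange disulfide bonds, Pdia3 and P4hb fell without naive 1 and did not pass with all 9 arrays. Pdia3, which works with calnexin and calreticulin on glycoproteins, read 10.12, 10.94 and 10.63 in naive, 10.01, 10.28 and 10.16 in acute and 10.10, 10.11 and 10.23 in chronic arrays. Without naive 1 it fell by 0.63 log2 units (SE 0.12, adjusted p = 0.0101) in acute and by 0.64 log2 units (SE 0.12, adjusted p = 0.00808) in chronic cells, and its differences with all 9 arrays were -0.41 (SE 0.19, adjusted p = 0.328) and -0.42 (SE 0.19, adjusted p = 0.204). P4hb, the founding disulfide isomerase, read 8.53, 9.84 and 9.42 in naive, 9.35, 9.51 and 9.54 in acute and 8.87, 9.21 and 9.15 in chronic arrays. It fell in chronic cells without naive 1 by 0.55 log2 units (SE 0.15, adjusted p = 0.0366) and differed by -0.16 (SE 0.15, adjusted p = 0.674) in acute cells. With all 9 arrays its differences were -0.19 (SE 0.28, adjusted p = 0.693) in chronic and 0.21 (SE 0.28, adjusted p = 0.842) in acute cells, and the fall passed in 1 of the 9 fits that left out 1 array. Pdia6, another luminal isomerase, read 7.26, 9.45 and 8.67 in naive, and its 6 Th2 arrays lay between 8.49 and 8.73, with adjusted p of at least 0.138 in both comparisons and fits. Pdia4, a further family member, differed by 0.31 and 0.18 with all 9 arrays, with adjusted p of 0.508 and 0.549.

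The 4 degradation genes went different ways once naive 1 was left out. Herpud1, which organises the retrotranslocation complex, read 9.83, 10.43 and 10.61 in naive, 10.93, 10.97 and 10.95 in acute and 10.25, 10.54 and 10.61 in chronic arrays. The acute arrays lay close together and above all others. The difference in acute cells was 0.66 (SE 0.19, adjusted p = 0.0937) with all 9 arrays, and Herpud1 rose without naive 1, narrowly, by 0.43 log2 units (SE 0.12, adjusted p = 0.04996). It also passed without naive 3, and in no other fit that left out 1 array. In chronic cells it differed by 0.18 and -0.052 in these fits. Syvn1 (HRD1), the ubiquitin ligase of this pathway, read 8.45, 8.85 and 9.11 in naive, 8.53, 8.48 and 8.57 in acute and 8.25, 8.46 and 8.53 in chronic arrays, and fell without naive 1 by 0.45 log2 units (SE 0.12, adjusted p = 0.036) in acute and by 0.57 log2 units (SE 0.12, adjusted p = 0.0106) in chronic cells. Sel1l, the adaptor that stabilises HRD1, read 8.33, 8.68 and 8.56 in naive, 8.76, 9.01 and 8.97 in acute and 8.39, 8.64 and 8.48 in chronic arrays. Its difference in acute cells was 0.38 (SE 0.12, adjusted p = 0.128), and the acute arrays lay above all others. Edem1, which marks misfolded glycoproteins for disposal, read 9.38, 8.74 and 8.70 in naive, 8.39, 8.41 and 8.51 in acute and 8.24, 8.49 and 8.41 in chronic arrays. No Th2 array reached a naive one, and its difference in chronic cells was -0.56 (SE 0.17, adjusted p = 0.0902) with all 9 arrays and -0.34 (SE 0.099, adjusted p = 0.0485) without naive 1.

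Of the 4 translocation genes, none passed in either comparison. Sec61a1, the channel itself, read 10.30, 11.10 and 11.18 in naive, 11.21, 11.05 and 11.18 in acute and 11.22, 11.35 and 10.95 in chronic arrays, and without naive 1 its differences were 0.0023 and 0.030. Ssr3, a subunit of the translocon-associated TRAP complex, read 8.01, 9.02 and 9.02 in naive, 9.29, 9.41 and 9.49 in acute and 8.77, 8.96 and 9.24 in chronic arrays. Its acute arrays lay above all others, and the difference was 0.71 (SE 0.26, adjusted p = 0.196) with all 9 arrays and 0.38 (SE 0.14, adjusted p = 0.128) without naive 1. Ssr1, another TRAP subunit, differed by -0.19 and -0.41 without naive 1, with adjusted p of 0.609 and 0.116. Sec61b, the small channel subunit, has 3 probe sets that disagree. The brightest gave -0.42 in acute and -0.46 in chronic cells with all 9 arrays, and the other 2 gave 0.62 and 0.26 in acute and 0.25 and 0.20 in chronic cells, so that no direction is given for this gene.

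Sec24d, the COPII subunit that selects cargo for export from the ER, rose in acute cells under every alternative tried. It read 6.73, 6.24 and 6.08 in naive, 7.44, 7.24 and 7.52 in acute and 7.06, 7.13 and 6.96 in chronic arrays, with means of 6.35 ± 0.34, 7.40 ± 0.15 and 7.05 ± 0.09 (SD, n = 3). No 2 of the groups overlapped. Acute cells were 2.07-fold higher, 1.05 (SE 0.16, adjusted p = 0.00597), and it passed in all 9 fits that left out 1 array. Chronic cells were 1.62-fold higher, 0.70 (SE 0.16, adjusted p = 0.035), and it passed in 2 of the 9, those without naive 1 or chronic 3, with adjusted p up to 0.122 in the others. Without naive 1 the values were 1.24 (SE 0.11, adjusted p = 0.00015) and 0.89 (SE 0.11, adjusted p = 0.000922). The naive mean lay below the background level of 6.53, so that these folds start from a level that is not told apart from background. Sec23b, the coat subunit that pairs with Sec24 proteins, read 8.70, 9.22 and 9.11 in naive, 9.23, 9.20 and 9.19 in acute and 9.07, 9.10 and 8.99 in chronic arrays, and its adjusted p was at least 0.39 in both comparisons and fits.

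Between chronic and acute Th2 cells no gene of the list passed the test, and most were read slightly lower in chronic cells. No gene of the 32 passed limma's test in this comparison (0, where 6 of 19937 genes, 0.0301%, passed in either direction), and 2 had an unadjusted p under 0.05, Herpud1 and Sel1l. Without naive replicate 1, which changes only the estimate of the spread, 0 passed against 0.0602% of all genes, and 8 had an unadjusted p under 0.05. The share of all genes under this unadjusted level was not computed, so these unadjusted counts say nothing particular about the list. Of the 32 differences 27 were negative, with a median of -0.12 against 0.043 for all genes. The count of negative values was 29 with arrays centred on their median and 16 with quantile normalisation, so that the shift of the list as a whole depends on the scaling. All 7 sensors and factors were negative under each of the 3 scalings. On the deposited scale groups did not overlap for 8 genes, all lower in chronic cells (25%, against 10.8% of all genes), namely Atf6, Trib3, P4hb, Herpud1, Sel1l, Ssr3, Sec23b and Sec24d. This count was not made under the other scalings, and the difference of Sec23b was 0.028 with quantile normalisation.

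Single genes show how wide the uncertainty is. Herpud1 was -0.48 in chronic against acute cells (95% interval -0.91 to -0.052, adjusted p = 0.323), and all chronic arrays lay below the acute ones. Sel1l was -0.41 (95% interval -0.68 to -0.13, adjusted p = 0.322). Atf6 was -0.49, with an interval of -1.43 to 0.45 on all 9 arrays and of -0.71 to -0.26 without naive 1, where its adjusted p was 0.102. Ern1 was -0.54 (95% interval -1.36 to 0.27), with chronic replicate 3 at 9.78 beside 8.77 and 8.68. Hspa5 was -0.081 and Calr -0.0018, with intervals of -0.58 to 0.42 and -0.44 to 0.44, which leave room for differences of either sign. Without naive replicate 1 and chronic replicate 3 together, 5 genes (15.6%) were lower in chronic cells at an adjusted p under 0.05, against 2.61% of all genes, of which 1087 were then called in either direction. Ern1 fell by 0.89 on the log2 scale there (adjusted p = 0.0338), Trib3 by 0.59, Atf6 by 0.55, Herpud1 by 0.55 and Ssr3 by 0.54. With limma's array weights, which give less weight to discordant arrays, 10 genes were lower (31.2%), against 13.8% of all genes, of which 6721 were then called in either direction. The chronic arrays left in the first of these fits had Il2 at 9.95 and 8.95, below chronic 3, and the part of activation in the differences was not tested.

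**Figure D5:**
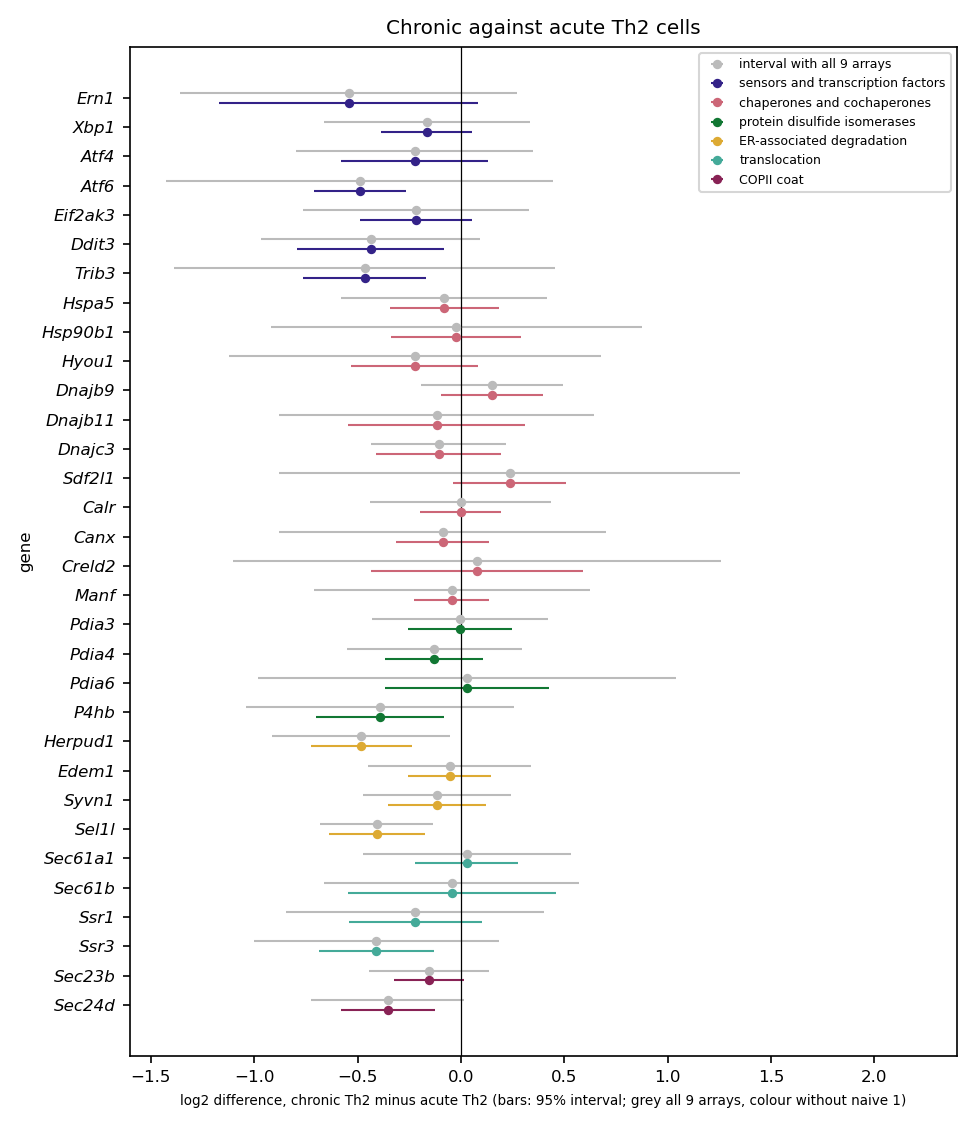
Log2 difference of chronic minus acute Th2 cells for each gene, with 95% intervals; grey bars are from all 9 arrays and coloured ones from the fit without naive replicate 1. Most points lie left of 0, and Ern1, Atf6, Herpud1 and Trib3 lie farthest left.

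The rest of the pathway was described from 154 further genes, of which 146 were measured. In acute cells 7 of the 146 rose and 1 fell with all 9 arrays, with a median difference of 0.11. These shares, 4.79% and 0.685%, are near or below those of all genes (3.67% and 2.2%), so that they say nothing particular about the list. Ero1a, the oxidase that recharges disulfide isomerases, read 8.12, 9.88 and 9.53 in naive, 12.42, 12.39 and 12.52 in acute and 11.99, 12.10 and 12.31 in chronic arrays. It rose by 3.27 log2 units (SE 0.38, adjusted p = 0.00124) in acute and by 2.96 log2 units (SE 0.38, adjusted p = 0.00217) in chronic cells, and every Th2 array was far above every naive one. Creb3l2, a membrane-bound factor that is cleaved in the Golgi as ATF6 is and promotes secretory cargo export, read 6.08, 6.53 and 6.84 in naive, 9.20, 9.09 and 9.31 in acute and 8.56, 8.48 and 9.02 in chronic arrays. It rose by 2.72 log2 units (SE 0.21, adjusted p = 9.7e-05) in acute and by 2.20 log2 units (SE 0.21, adjusted p = 0.000334) in chronic cells, from a naive mean below the background of 6.53, so that these sizes start from a level not told apart from background.

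The other genes that passed in acute cells came from several groups of the list. Nupr1, a stress-induced chromatin protein, rose by 1.64 log2 units (SE 0.22, adjusted p = 0.00282), also from a naive mean below 6.53. Sec11c, a signal peptidase subunit, rose by 1.27 log2 units (SE 0.20, adjusted p = 0.00731). Sec23a, the paralog of Sec23b, rose by 0.79 log2 units (SE 0.13, adjusted p = 0.00935) and Copa, a COPI coat subunit, by 0.47 log2 units (SE 0.077, adjusted p = 0.00815). Ppic, a prolyl isomerase, rose by 0.40 log2 units (SE 0.095, adjusted p = 0.0464). Sec11a, the other catalytic signal peptidase subunit, fell by 0.59 log2 units (SE 0.11, adjusted p = 0.0137), so that the paralogs Sec11a and Sec11c moved in opposite directions in acute cells.

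In chronic cells 3 of the 146 rose and 5 fell, with a median of -0.032 (2.05% and 3.42%, against 3.68% and 4.2% of all genes). Beside Ero1a and Creb3l2, Tram1, a translocon-associated protein, rose by 0.56 log2 units (SE 0.13, adjusted p = 0.0385). Stt3b, a catalytic subunit of the oligosaccharyltransferase, fell by 1.11 log2 units (SE 0.20, adjusted p = 0.0125), and Sec11a by 0.66 log2 units (SE 0.11, adjusted p = 0.0077). Edem3, a mannosidase of the Edem1 family, fell by 0.59 log2 units (SE 0.10, adjusted p = 0.0103). Mbtps1, the protease that makes the first cut in ATF6, fell by 0.47 log2 units (SE 0.11, adjusted p = 0.0346). Sec24b, a paralog of Sec24d, fell by 0.38 log2 units (SE 0.074, adjusted p = 0.0173), against a rise of Sec24d in the same cells.

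Some ATF4 target genes passed only without naive replicate 1. Asns, the asparagine synthetase that ATF4 induces, read 5.97, 10.75 and 10.33 in naive, 12.04, 12.12 and 12.07 in acute and 11.93, 12.05 and 11.81 in chronic arrays. Its difference in acute cells was 3.06 (SE 1.05, adjusted p = 0.167) with all 9 arrays, and it rose by 1.54 log2 units (SE 0.13, adjusted p = 0.000107) without naive 1. In chronic cells it was 2.91 (SE 1.05, adjusted p = 0.13) and 1.39 (SE 0.13, adjusted p = 0.000175) in these fits. Atf3, a stress factor downstream of ATF4, read 6.72, 9.67 and 9.71 in naive arrays and rose without naive 1 by 0.92 log2 units (SE 0.17, adjusted p = 0.00668) in acute and by 1.10 log2 units (SE 0.17, adjusted p = 0.00229) in chronic cells. Over the whole group of 24 measured stress signalling and ATF4 target genes, 14 differences were negative in acute cells (median -0.050) and 14 in chronic cells (median -0.11) without naive 1. Of the 24, 5 rose in acute cells, and 3 rose and 2, Atf6b and Mbtps1, fell in chronic cells. Atf6b read 8.31, 9.12 and 9.16 in naive and 8.46, 8.59 and 8.87 in chronic arrays. Without naive 1, 14 of the 146 rose (9.59%, against 6.05% of all genes) and 4 fell (2.74%, against 6.11%) in acute cells. In chronic cells 6 rose (4.11%, against 5.84%) and 14 fell (9.59%, against 11.4%), so that most of these shares are near or below those of all genes. Chronic against acute, 0 of the 146 passed limma's test in either fit, where 0.0301% and 0.0602% of all genes passed. An unadjusted p under 0.05 was read for 22 with all 9 arrays and for 50 without naive 1. In that comparison 112 of the 146 differences were negative on the deposited scale. Their median was -0.17, against 0.043 for all genes. The unadjusted and negative counts were made neither over all genes nor under the other scalings, so they show no trait of the list.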

How the data were processed

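RNA of 9 samples was hybridised to Affymetrix arrays, and the values used are the authors' deposited log2 intensities per probe set, which were normalised by RMA and compared with limma, per the submitters' processing notes. Their versions, the build behind the probe annotation and filters before deposit: not given in the sources used here. Arrays have no read depth, and their number limits the precision. Of 34760 probe sets, 21640 name 1 gene, and the brightest over all 9 arrays stood for each of 19937 genes, with no filter on dim genes. Levels of different probe sets are not comparable.

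Differences between groups were fitted with limma 3.58.1 in R 4.3.3 on all 9 arrays, with empirical Bayes and Benjamini-Hochberg adjustment over all genes, at an adjusted p under 0.05. The procedure was tested for acute minus naive on simulated data with independent noise and no discordant array. That simulation cannot show how an array such as naive replicate 1 affects the calls. Alternatives left out arrays, recentred or quantile normalised the arrays, averaged probe sets, filtered dim genes, weighted arrays, used an intensity trend, only the 2 groups compared or a replicate block. Replicate numbers were not taken as pairs, because correlations of same-numbered deviations were mixed, from -0.086 to 0.57, and did not settle the question.

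The 32 genes, the further pathway genes and the markers were chosen with earlier results of these data known. All 32 genes are named. Of the further genes, those past the threshold in the fit on all arrays are named. For the fit without naive replicate 1, genes are named only from the stress signalling and ATF4 target group. The other further genes that passed in that fit are counted and not named for it. Another scaling combined with leaving out naive replicate 1 was added after seeing the data.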

Additional observations from a re-analysis of the deposited data

Results flagged for a closer look

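A signal appeared in a probe set of Sec61b that the comparisons do not use. This probe set rose in acute Th2 cells by 0.62 on the log2 scale over naive cells (SE 0.14, adjusted p = 0.0410 over all probe sets), with means of 5.82 and 5.20. Both means lie below the background level of 6.53. The brightest probe set of the gene differed by -0.42 and the remaining one by 0.26 in the same comparison (adjusted p = 0.553 and 0.244). The cause of the disagreement was not tested. The critical values for a single outlying array were not applied, since every group has 3 arrays.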

How the results depend on the processing

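The counts of genes called against naive cells turned on single arrays. Over the fits that left out 1 array, the acute comparison gave 2 to 4 genes higher and 0 to 5 lower, with a median from -0.16 to 0.41. The chronic comparison gave 0 to 3 higher and 0 to 11 lower, with a median from -0.31 to 0.22, and chronic minus acute gave 0 in either direction. Of all genes 2.31% to 6.05% were higher and 0.968% to 6.11% lower in acute cells in these fits. In chronic cells these shares were 2.12% to 6.02% and 1.56% to 11.4%. For chronic minus acute, at most 12 of 19937 genes passed in any of these fits. The highest counts of lower genes came without naive replicate 1. Without naive 1 and chronic 3 together there were 5 higher and 6 lower in acute cells (median -0.16), 11 lower in chronic cells (median -0.35) and 5 lower in chronic against acute cells. The shares of all genes there were 6.56%, 6.6%, 13.2% and 2.61%. Array weights gave 7 higher and 4 lower in acute cells (all genes 9.77% and 10.4%), 4 lower in chronic cells (12.5%, all genes 13%) and 10 lower in chronic against acute cells (all genes 13.8%). A fit of only the 2 groups compared gave 0 lower in acute cells (all genes 1.15%). It gave 0 higher or lower in chronic cells (all genes 1.95% and 1.49%). For chronic cells an intensity trend gave 0 lower (all genes 3.51%), quantile normalisation 0 lower (all genes 2.99%) and centred arrays 1 higher (all genes 3.11%). With naive 1 left out as well, centred arrays gave 3 lower in acute (all genes 5.01%) and 12 lower in chronic cells (all genes 12.1%). Quantile normalisation without naive 1 gave 6 higher and 8 lower in acute cells (all genes 6.65% and 6.65%) and 4 lower in chronic cells (all genes 9.13%). Over all genes chronic minus naive gave 734 higher and 837 lower as deposited, 620 and 992 with centred arrays, and 762 and 596 with quantile normalisation. The filter on dim genes changed no call of the 32 genes. The causes were not tested.

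The replicate block gave 5 genes higher in the acute comparison in place of 3 (all genes 4.03%) and the same counts otherwise. Over all genes it called 1261 in place of 1171 in acute, 1844 in place of 1571 in chronic and 0 in place of 6 in chronic against acute cells. Same-numbered arrays correlated in their deviations from the group means by 0.12, 0.33 and -0.086 between naive and acute, 0.12, 0.10 and 0.044 between naive and chronic, and 0.57, -0.012 and 0.40 between acute and chronic cells. Differently numbered arrays ranged from -0.56 to 0.44. These values do not settle whether the numbers pair the samples.

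Signs reversed only where the difference did not pass the test with all 9 arrays. Without naive 1 and chronic 3 together, acute minus naive was -0.13 for Trib3, -0.15 for Hspa5, -0.26 for Hsp90b1, -0.39 for Canx, -0.30 for Manf, -0.50 for Pdia6, -0.16 for P4hb and -0.19 for Ssr1. Without naive 1 and chronic 3 together, chronic minus naive was -0.34 for Atf4, -0.34 for Hspa5, -0.34 for Hsp90b1, 0.010 for Dnajc3, -0.54 for Canx, -0.36 for Manf, -0.43 for Pdia6, -0.12 for Herpud1, 0.020 for Sec61b, -0.16 for Ssr3 and -0.086 for Sec23b. Without naive 1 and chronic 3 together, chronic minus acute was 0.21 for Sec61b. With array weights, acute minus naive was -0.040 for Hspa5, -0.074 for Hsp90b1, -0.26 for Canx, -0.23 for Manf, -0.32 for Pdia6 and -0.049 for Ssr1. With array weights, chronic minus naive was -0.15 for Atf4, -0.20 for Hspa5, -0.10 for Hsp90b1, 0.099 for Dnajc3, -0.37 for Canx, -0.24 for Manf, -0.21 for Pdia6, -0.00040 for Herpud1 and -0.053 for Sec23b. With array weights, chronic minus acute was -0.0032 for Dnajb9, 0.036 for Dnajb11 and 0.018 for Calr. With arrays centred on their median, chronic minus naive was -0.026 for Hspa5, -0.054 for Canx and -0.024 for Sec23b. With arrays centred on their median, chronic minus acute was -0.033 for Pdia6 and -0.035 for Sec61a1. With quantile normalisation, chronic minus naive was 0.018 for Ddit3, 0.14 for Trib3, 0.11 for Dnajc3, 0.0075 for Sdf2l1, 0.048 for Calr, 0.10 for Creld2, 0.19 for Sel1l and 0.084 for Ssr1. With quantile normalisation, chronic minus acute was 0.11 for Hsp90b1, 0.071 for Dnajb11, 0.080 for Dnajc3, 0.13 for Calr, 0.14 for Manf, 0.13 for Pdia3, 0.029 for Pdia4, 0.13 for Edem1, 0.073 for Syvn1, 0.12 for Sec61b and 0.028 for Sec23b. Averaging the probe sets of Sec61b gave 0.16 for acute minus naive. Leaving out 1 array gave both signs for further genes. For acute minus naive these were Trib3 from -0.13 to 0.71, Hspa5 from -0.15 to 0.30, Hsp90b1 from -0.26 to 0.65, Canx from -0.39 to 0.41, Manf from -0.30 to 0.33, Pdia6 from -0.50 to 0.59, P4hb from -0.16 to 0.50, Ssr1 from -0.19 to 0.45, Hyou1 from -0.60 to 0.28, Dnajb11 from -0.65 to 0.13, Calr from -0.32 to 0.11, Creld2 from -0.84 to 0.42 and Dnajc3 from -0.15 to 0.10. For chronic minus naive these were Atf4 from -0.18 to 0.27, Hspa5 from -0.24 to 0.22, Hsp90b1 from -0.28 to 0.63, Canx from -0.48 to 0.32, Manf from -0.34 to 0.28, Pdia4 from -0.047 to 0.35, Pdia6 from -0.47 to 0.62, Herpud1 from -0.052 to 0.34, Ssr3 from -0.033 to 0.47, Sec23b from -0.12 to 0.14, Trib3 from -0.60 to 0.24, Hyou1 from -0.82 to 0.056, Dnajb11 from -0.77 to 0.015, Sdf2l1 from -0.88 to 0.22, Calr from -0.32 to 0.11, Creld2 from -0.76 to 0.49, P4hb from -0.55 to 0.10, Sel1l from -0.12 to 0.057, Ssr1 from -0.41 to 0.23 and Ddit3 from -0.43 to 0.023. For chronic minus acute these were Creld2 from -0.044 to 0.18, Hsp90b1 from -0.11 to 0.078, Calr from -0.024 to 0.039, Pdia3 from -0.075 to 0.062, Sec61a1 from -0.059 to 0.14, Sec61b from -0.28 to 0.21, Manf from -0.081 to 0.015, Edem1 from -0.11 to 0.014 and Pdia6 from -0.043 to 0.077. The 3 arrays a group limit the precision, and signals near the background of 6.53, as for Sec24d in naive cells, carry little information on size.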
